A study of Sus scrofa with 6 samples.

Results

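Stearoyl-CoA desaturase (SCD), fatty acid synthase (FASN) and patatin-like phospholipase domain-containing 3 (PNPLA3) were followed in longissimus dorsi, a long back muscle, of 2 pig breeds. Probe sets of the Affymetrix Porcine Genome Array were taken where the platform annotation gave exactly one of these symbols. This rule found 6 of the 23999 probe sets that are not array controls. SCD (NCBI Gene 396670) had 1 probe set, FASN (397561) had 4 and PNPLA3 (100049690) had 1. The muscle came from 3 Northeastern Indigenous boars and from 3 Large White boars, which served as the control breed. All were 150 days old, had the same feed and housing per the labels, carried no stated transgene and received no stated treatment. Each boar gave 1 array, hybridized with biotin-labelled cRNA. The labels call the arrays biological replicates, so each p-value from all 6 arrays sets 3 boars against 3 boars. Fits with arrays left out use fewer boars. The limma p-values also draw on the spread of all probe sets tested.

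Fatty acid synthase builds palmitate from acetyl-CoA and malonyl-CoA with NADPH as the reductant. Stearoyl-CoA desaturase then puts a double bond into stearate and palmitate, which yields oleate and palmitoleate, the main monounsaturated fatty acids of stored fat. PNPLA3 is a protein of the lipid droplet surface, and in human and mouse its transcription is driven by the same regulators, SREBP-1c and ChREBP, that drive FASN and SCD. In pigs most new fatty acid is made in adipose tissue, and back muscle also holds fat cells between its fibres.

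Values below are quantile normalized log2 intensities unless the deposited linear intensity is named. Differences are Northeastern Indigenous minus Large White. Levels of different genes are not set against each other, since each probe set has its own brightness, and where FASN probe sets are called bright or dim this describes their signal only.

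The Large White arrays were not alike, and this bears on every difference between the breeds. Across the 14399 probe sets that passed a filter on dim signals, the Northeastern Indigenous arrays correlated with Large White replicate 1 at r = 0.71 to 0.76 and with replicate 3 at 0.84 to 0.89. With Large White replicate 2 they correlated at 0.92 to 0.95. The mean log2 intensity of 8 adipocyte markers ran from 8.50 to 9.17 on the Northeastern Indigenous arrays and from 9.02 to 11.77 on the Large White arrays. That of 14 skeletal muscle markers ran from 14.23 to 14.46 on the Northeastern Indigenous arrays and from 10.18 to 14.28 on the Large White arrays. CKM, the muscle creatine kinase gene and a defining muscle marker, was bright and read 15.21 to 15.23 in Northeastern Indigenous boars. It read 15.26 and 15.16 on Large White replicates 2 and 3, but 12.78 on Large White replicate 1. The mean of the 14 muscle markers nevertheless lay below the Northeastern Indigenous range on Large White replicate 3 too, at 13.66, and at 10.18 on replicate 1. Large White replicates 1 and 3 were therefore also left out together, and the differences of the 3 genes are given with and without them. In whole tissue, fewer cells of a type and less RNA per cell cannot be told apart.

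SCD was dimmer in the Northeastern Indigenous boars than in every Large White boar. Its deposited intensities were 1405, 2948 and 372 on Northeastern Indigenous replicates 1, 2 and 3, against 24584, 4626 and 25660 on Large White replicates 1, 2 and 3. On the log2 scale these became 10.47, 11.52 and 8.62 in Northeastern Indigenous boars, against 15.15, 12.12 and 15.07 in Large White boars. The breeds did not overlap, but the dimmest Large White array, replicate 2, lay only 0.60 log2 units above the brightest Northeastern Indigenous array. Large White replicates 1 and 3 lay near the top of the scale, above 99.9% of the probe sets of their arrays.

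The mean of SCD was 10.20 ± 1.47 in Northeastern Indigenous boars and 14.11 ± 1.73 in Large White boars (SD, n = 3 each). The difference was -3.91 ± 1.00 log2 units (SE in limma, 95% confidence interval -6.26 to -1.56), or 15.0-fold lower. Limma's unadjusted p was 0.00559 and the Benjamini-Hochberg adjusted p over all 14399 probe sets was 0.224, so the difference did not pass the threshold of 0.05. A two-sided exact permutation test gave p = 0.1, the smallest that 3 against 3 arrays allow. SCD also varied widely within the Northeastern Indigenous boars, over 2.90 log2 units, and 0.938% of tested probe sets had a larger SD there.

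**Figure D1:**
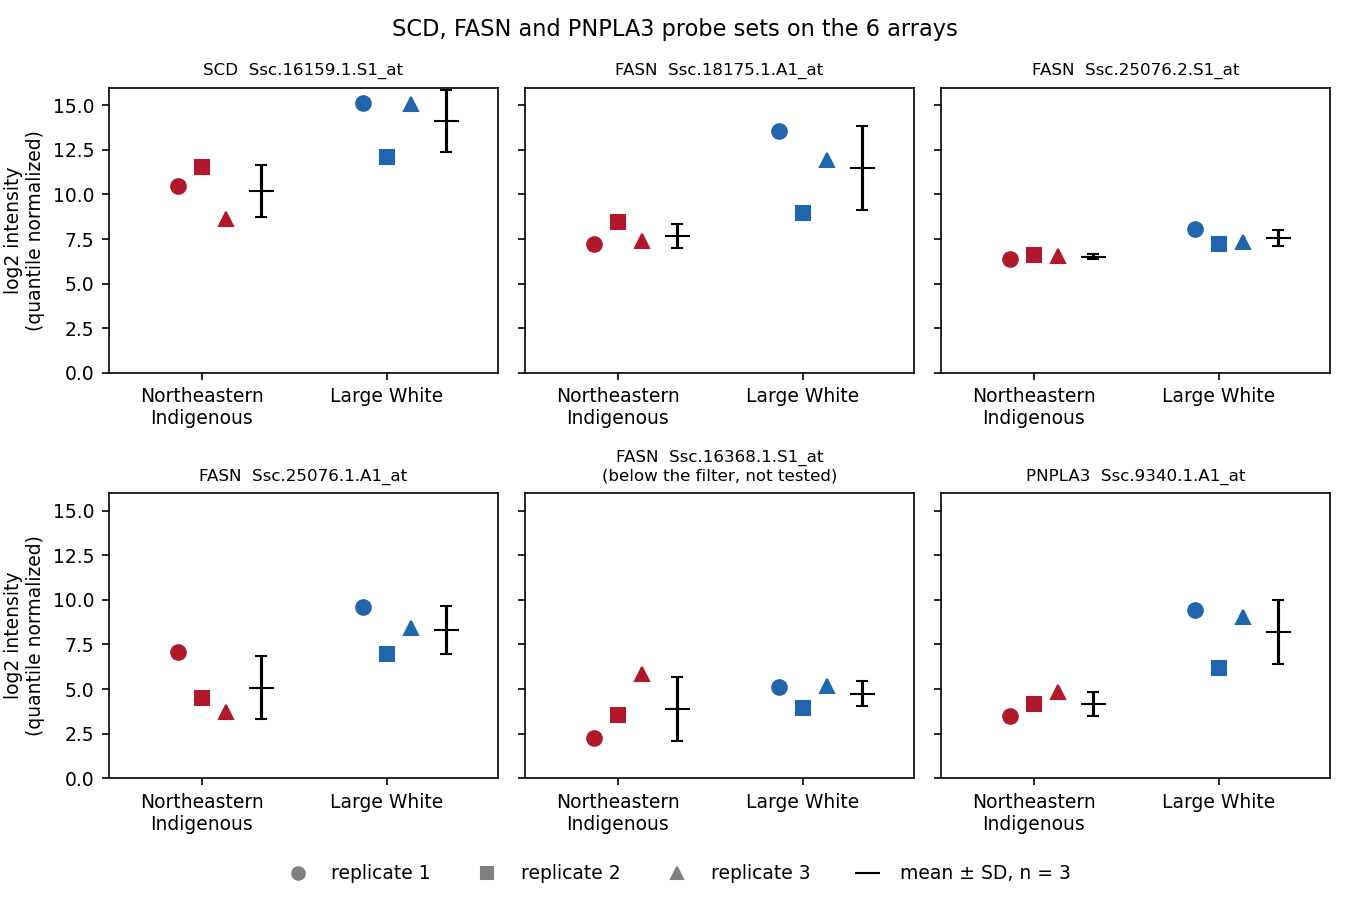
Quantile normalized log2 intensity (vertical axis) of the 6 probe sets on each array, Northeastern Indigenous arrays in red and Large White arrays in blue. Marker shape gives the replicate, and the black bars give the mean ± SD of 3 arrays. SCD, PNPLA3 and 2 FASN probe sets do not overlap between the breeds, and Large White replicate 2 is the lowest Large White array in every panel.

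FASN was read by 4 probe sets, and the stretch of transcript that each of them covers is not given in the sources used here. The brightest, Ssc.18175.1.A1_at, stands for the gene in the tests. It read 7.21, 8.44 and 7.36 on Northeastern Indigenous replicates 1, 2 and 3, against 13.56, 8.96 and 11.95 on Large White replicates 1, 2 and 3. The deposited intensities were 131.4, 332.7 and 155.5 in Northeastern Indigenous boars, against 9164, 465 and 3810 in Large White boars. The breeds did not overlap, with a gap of 0.52 log2 units between Large White replicate 2 and Northeastern Indigenous replicate 2.

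This probe set averaged 7.67 ± 0.67 in Northeastern Indigenous boars and 11.49 ± 2.33 in Large White boars (SD, n = 3 each). The difference was -3.82 ± 1.08 log2 units (SE, 95% confidence interval -6.36 to -1.28), or 14.1-fold lower. It had an unadjusted p of 0.00911 and an adjusted p of 0.224 in limma, and an exact permutation p of 0.1, two-sided. The Large White SD was among the wide ones, with 1.50% of tested probe sets above it.

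The other FASN probe sets were dimmer and did not all follow the first. Ssc.25076.2.S1_at read 6.37, 6.62 and 6.57 in Northeastern Indigenous boars, against 8.09, 7.25 and 7.35 in Large White boars. These breeds did not overlap either, and the difference was -1.04 ± 0.32 (SE in limma, unadjusted p = 0.0133, adjusted p = 0.224). Ssc.25076.1.A1_at read 7.07, 4.47 and 3.70 in Northeastern Indigenous boars, against 9.59, 6.95 and 8.41 in Large White boars. Here Northeastern Indigenous replicate 1 lay above Large White replicate 2, so the breeds overlapped, at a difference of -3.23 ± 0.99 (SE in limma, unadjusted p = 0.0135, adjusted p = 0.224). The dimmest, Ssc.16368.1.S1_at, read 2.25, 3.57 and 5.84 in Northeastern Indigenous boars, against 5.09, 3.96 and 5.18 in Large White boars. It failed the filter, had its highest value on Northeastern Indigenous replicate 3 and overlapped fully (exact permutation p = 0.6, two-sided).

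Over the 6 arrays the brightest FASN probe set correlated with Ssc.25076.2.S1_at at r = 0.94, with Ssc.25076.1.A1_at at 0.81 and with Ssc.16368.1.S1_at at 0.45, as a description without a test. The size of the FASN difference thus ran from -3.82 to -0.86 with the probe set, the last value from the probe set that failed the filter.

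PNPLA3 had a single probe set, Ssc.9340.1.A1_at, which was dim in the Northeastern Indigenous boars. It read 3.49, 4.14 and 4.82 on Northeastern Indigenous replicates 1, 2 and 3, against 9.41, 6.16 and 9.06 on Large White replicates 1, 2 and 3. The deposited intensities were 10.3, 19.0 and 29.1 in Northeastern Indigenous boars, against 760.7, 71.4 and 596.0 in Large White boars. On the Northeastern Indigenous arrays 15.3% to 26.4% of probe sets were as dim or dimmer, whereas on the Large White arrays this share was 42.7% to 81.3%. No detection calls were used here, so whether PNPLA3 was above background in the Northeastern Indigenous boars is unknown. The breeds did not overlap, and the gap between Large White replicate 2 and Northeastern Indigenous replicate 3 was 1.34 log2 units.

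PNPLA3 averaged 4.15 ± 0.67 in Northeastern Indigenous boars and 8.21 ± 1.78 in Large White boars (SD, n = 3 each). The difference was -4.06 ± 0.88 log2 units (SE, 95% confidence interval -6.13 to -1.99), with an unadjusted p of 0.00231 and an adjusted p of 0.224 in limma. The two-sided exact permutation p was again 0.1. The size of this difference rests on dim Northeastern Indigenous values, and with 32 added to every deposited intensity before the log it was -2.78. PNPLA3 and FASN Ssc.25076.1.A1_at passed the filter, set at a mean of 5.85, through their Large White values, because their Northeastern Indigenous means of 4.15 and 5.08 lay below it.

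None of the 5 tested probe sets passed limma at an adjusted p under 0.05, and neither did any other, with 0 of 14399 called (0%). At an unadjusted p under 0.05 limma gave 2706 probe sets (18.8%), of which 1436 were lower in Northeastern Indigenous boars (9.97%). SCD and the FASN probe sets Ssc.18175.1.A1_at and Ssc.25076.2.S1_at, whose means lay above the filter in both breeds, were among those 1436. PNPLA3 and FASN Ssc.25076.1.A1_at were too, but they entered the test through their Large White values, so their place there is partly set by the filter. In SCD and in those first 2 FASN probe sets the breeds did not overlap and the Northeastern Indigenous boars were lower, which held for 10.9% of all probe sets tested. Differences as low as that of SCD were found for 0.118% of probe sets and as low as that of FASN for 0.153%. The genes were chosen with earlier results of these data known, so such shares are a description and carry no test. The smallest FASN difference, of Ssc.25076.2.S1_at, was matched or passed by 10.3%.

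**Figure D2:**
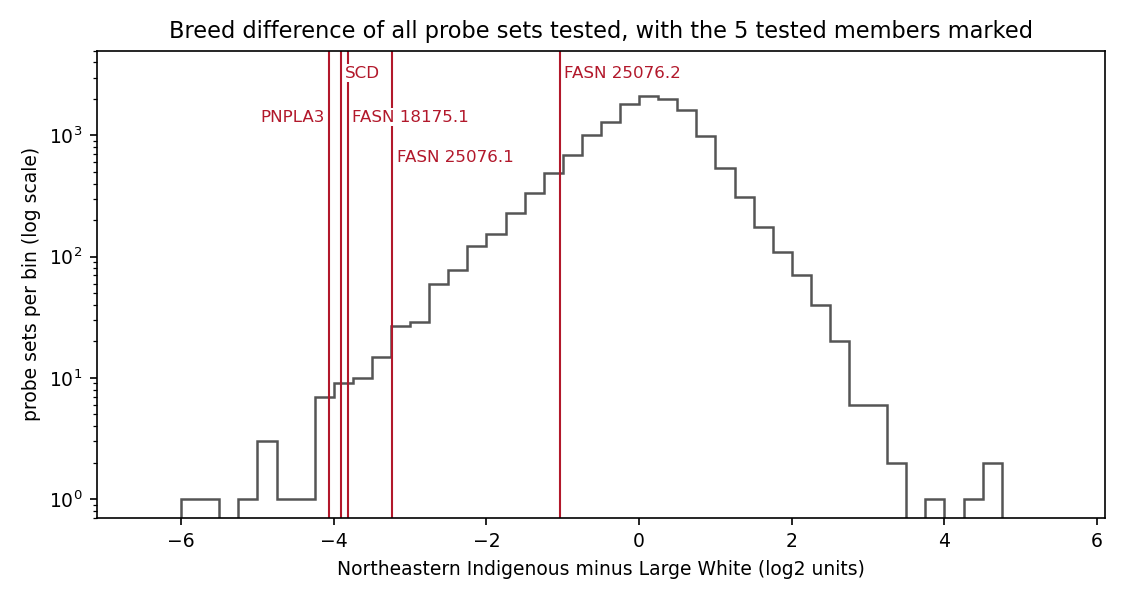
Number of probe sets (vertical axis, log scale) by breed difference in log2 units (horizontal axis) for the 14399 probe sets tested, with red lines at the 5 tested probe sets of SCD, FASN and PNPLA3. PNPLA3 at -4.06, SCD at -3.91 and FASN at -3.82 and -3.23 lie in the sparse lower tail, and the remaining FASN probe set lies at -1.04.

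Leaving arrays out changed the size of these differences and, in 1 case, the call. Without Large White replicate 2, limma gave -4.91 ± 0.75 for SCD, -5.08 ± 0.56 for FASN and -5.09 ± 0.47 for PNPLA3 (SE). The adjusted p became 0.00871, 0.00511 and 0.0044 in that order, but 30.7% of all probe sets were called there as well. The array left out was the lowest Large White array for each of these genes, so its loss was bound to enlarge the differences. PNPLA3 also entered the test through its Large White values. With Large White replicates 1 and 3 left out, the single remaining Large White array gave -1.92 ± 0.95 for SCD, -1.29 ± 0.52 for FASN and -2.01 ± 1.12 for PNPLA3 (SE in limma, adjusted p = 0.544, 0.445 and 0.578). In that fit the lone Large White array is assumed to vary like the Northeastern Indigenous arrays.

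**Figure D3:**
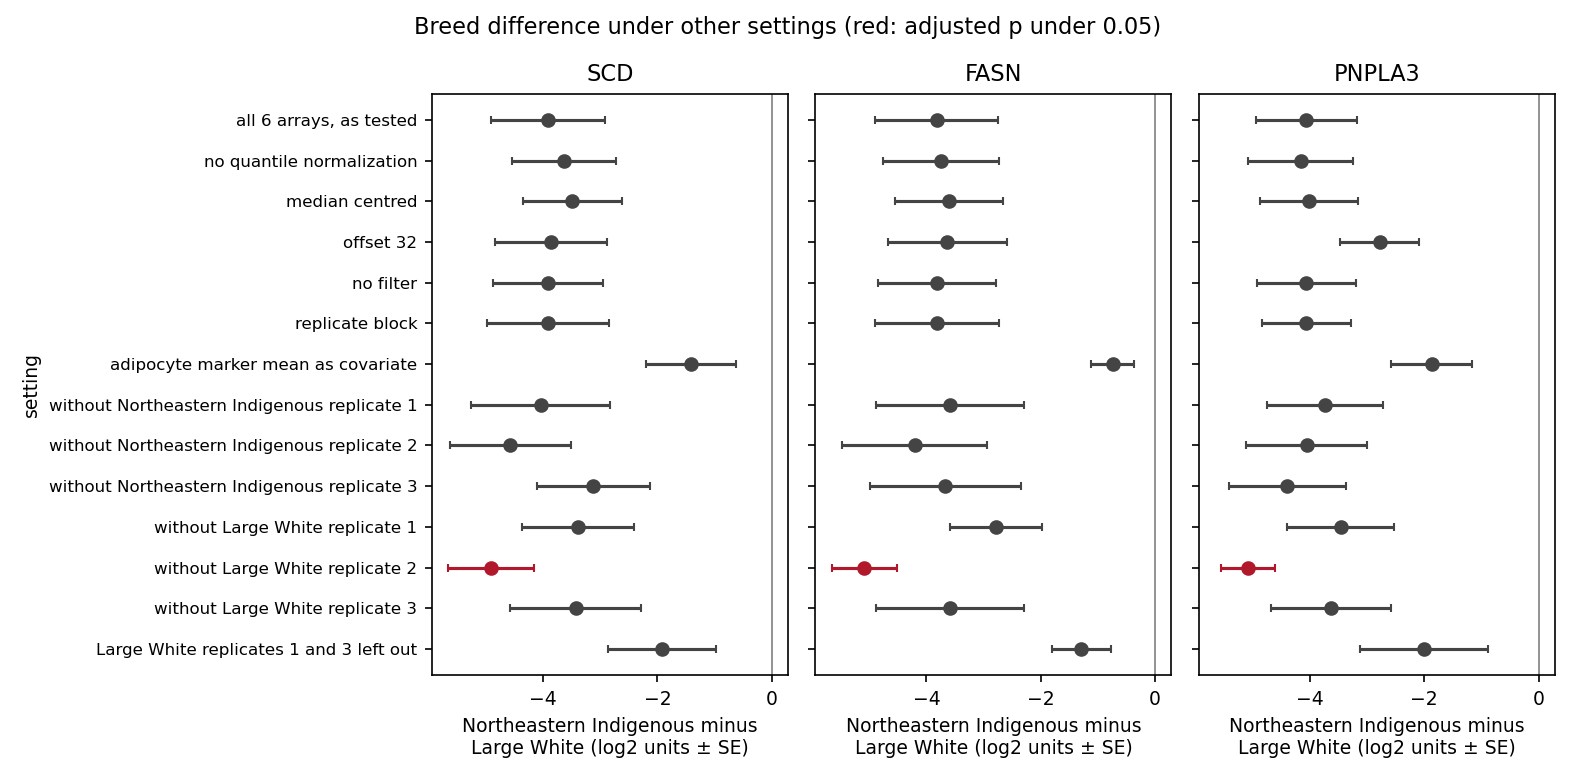
Breed difference in log2 units with its SE (horizontal axis) for SCD, FASN and PNPLA3 under each setting (vertical axis), red where the adjusted p was under 0.05. All points lie below 0, from -5.09 for PNPLA3 without Large White replicate 2 to -0.74 for FASN with the adipocyte marker mean as a covariate. Leaving arrays out could not change the sign, because the breeds did not overlap in the probe sets shown.

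Large White replicate 2 was the array most like those of the Northeastern Indigenous boars, and the 3 genes were still brighter on it. SCD lay 1.92 log2 units above the Northeastern Indigenous mean there, FASN 1.29 and PNPLA3 2.01. As far above that mean on this array as SCD lay 0.542% of tested probe sets, and as far as FASN 2.09%. No such share is given for PNPLA3, whose Northeastern Indigenous mean may not be above background. SCD and FASN Ssc.18175.1.A1_at and Ssc.25076.2.S1_at were brighter there than on every Northeastern Indigenous array, as was PNPLA3, and this held for 29.2% of all probe sets tested. FASN Ssc.25076.1.A1_at lay 0.13 below Northeastern Indigenous replicate 1. Some cell type markers were also brighter on this array. Relative to the Northeastern Indigenous mean, the median of 9 leukocyte markers stood 0.92 higher and that of 8 fibroblast markers 0.53 higher. Of these, 5 of 9 and 4 of 8 lay above every Northeastern Indigenous array. The endothelial, skeletal muscle and red blood cell medians stood at 0.002, 0.003 and -0.03. The part of such cells in the 3 genes was not tested.

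Adipocyte markers were mostly high on the other Large White arrays, and 7 of the 8 tested had negative differences. GPD1 went the other way and is part of the marker mean. It read 13.82, 13.86 and 13.74 in Northeastern Indigenous boars, against 11.70, 13.81 and 13.35 in Large White boars. Relative to the Northeastern Indigenous mean, the median of the 8 tested markers stood 3.18 log2 units higher on Large White replicate 1 and 2.03 higher on replicate 3. On Large White replicate 2 it stood 0.29 higher. On Large White replicate 2 the defining marker ADIPOQ, the fat-cell hormone adiponectin, read 7.22, inside the Northeastern Indigenous range of 6.73 to 8.29. CIDEA, a lipid droplet protein, and PCK1, which supplies glycerol for triglyceride in fat cells, were the 2 of the 8 markers that lay above every Northeastern Indigenous array there. CIDEA read 5.56, 5.99 and 5.44 in Northeastern Indigenous boars, against 11.31, 6.66 and 10.17 in Large White boars.

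With the adipocyte marker mean as a covariate in limma, the difference was -1.41 ± 0.79 for SCD, -0.74 ± 0.37 for FASN and -1.87 ± 0.71 for PNPLA3 (SE). The unadjusted p was 0.117, 0.0863 and 0.0336, and the adjusted p was 0.68, 0.642 and 0.548. The signs thus stayed negative while the sizes came to less than those on all 6 arrays without the covariate. The covariate itself largely followed breed. It was 11.77 and 11.22 on Large White replicates 1 and 3, and only replicate 2, at 9.02, lay within the Northeastern Indigenous range of 8.50 to 9.17. With 6 arrays this fit cannot fully separate breed from the marker mean.

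Markers of other cells also differed between these arrays, and their part in the differences was not tested. The 9 leukocyte markers averaged 6.37 to 7.84 on Northeastern Indigenous arrays and 7.94 to 9.38 on Large White arrays, with 7 of 9 lower at an unadjusted p under 0.05, against 9.97% of all probe sets. The 8 fibroblast markers averaged 10.05 to 10.71 on Northeastern Indigenous arrays and 10.81 to 12.78 on Large White arrays, with 6 of 8 lower at that p, and of the 8 adipocyte markers 5 were lower at it. The 7 endothelial markers averaged 8.14 to 8.52 on Northeastern Indigenous arrays and 7.97 to 8.26 on Large White arrays, with 0 of 7 past that p in either direction. The 4 red blood cell markers averaged 8.92 to 11.29 on Northeastern Indigenous arrays and 9.84 to 10.99 on Large White arrays, also with 0 past it. All 14 skeletal muscle markers had positive differences, against 8028 of all 14399 probe sets. Their median was 1.63, and 0 of 14 had an unadjusted p under 0.05 in limma. None of these markers passed the adjusted threshold. Among the markers lower at the unadjusted p, CD3D, CD3E, CIDEA and PPARG had Northeastern Indigenous means of 4.33, 5.48, 5.66 and 5.80. These lay below the filter, set at 5.85, so the 4 genes entered the test through their Large White values. The leukocyte and adipocyte counts are thus partly set by the filter. PTPRC, the pan-leukocyte marker, read 4.66, 6.90 and 5.29 in Northeastern Indigenous boars, against 6.96, 5.54 and 6.25 in Large White boars. PECAM1 of endothelium differed by -0.46 ± 0.29 and the beta-globin gene HBB by 0.08 ± 0.27 (SE).

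The other lipid genes listed by role, enzymes and regulators together, did not share 1 direction. Of these 75 genes, 38 had a probe set that passed the filter. None passed the adjusted threshold, 2 were higher and 6 lower at an unadjusted p under 0.05, and 14 differences were positive and 24 negative. Over all probe sets tested 8.82% were higher and 9.97% lower at that p. Among the 6 lower genes, AGPAT4 had a Northeastern Indigenous mean of 5.53, below the filter, and entered the test through its Large White values. The median difference of the 38 genes was -0.33, against 0.10 for all probe sets. On Large White replicate 2, 8 of the 38 genes lay above every Northeastern Indigenous array, against 29.2% of all probe sets.

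Among 6 tested genes that feed fatty acid synthesis, 1 was lower at an unadjusted p under 0.05. The median of the 6 was -0.96, but 0.17 with Large White replicates 1 and 3 left out and 0.25 with the adipocyte covariate. The lower gene was PGD, which makes NADPH in the pentose phosphate pathway. PGD read 6.74, 6.08 and 6.40 in Northeastern Indigenous boars, against 11.07, 7.78 and 9.34 in Large White boars, with a difference of -2.99 ± 0.76 (SE in limma, unadjusted p = 0.00542, adjusted p = 0.224). It was the 1 gene of the 6 that stood above every Northeastern Indigenous array on Large White replicate 2. The malic enzyme gene ME1 read 10.67 to 10.80 in Northeastern Indigenous boars, against 13.59, 10.58 and 12.19 in Large White boars, so that Large White replicate 2 lay just below the Northeastern Indigenous range. The acetyl-CoA carboxylase gene ACACA, which makes the malonyl-CoA that FASN uses, was below the filter and overlapped between the breeds.

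All 6 tested genes of elongation and desaturation had negative differences, with a median of -0.82, but the median was 0.050 with Large White replicates 1 and 3 left out and 0.21 with the adipocyte covariate. ELOVL6, the elongase that turns palmitate into stearate and so supplies SCD, had the largest difference of the 38 genes, at -4.08 ± 1.51 (SE in limma, unadjusted p = 0.0298, adjusted p = 0.243). It read 7.78, 10.25 and 6.90 in Northeastern Indigenous boars, against 14.65, 9.02 and 13.50 in Large White boars. The breeds overlapped, because Northeastern Indigenous replicate 2 lay above Large White replicate 2. SCD5, the other desaturase of the SCD family, read 5.72, 5.27 and 6.01 in Northeastern Indigenous boars, against 7.04, 5.09 and 7.16 in Large White boars, a difference of -0.76 ± 0.61 (SE). Unlike SCD, it was at its lowest on Large White replicate 2, and a test between the 2 genes was not made.

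Triglyceride assembly was mixed, with 6 of 10 differences positive and a median of 0.19, which was -0.028 with Large White replicates 1 and 3 left out and -0.058 with the adipocyte covariate. DGAT2, the acyltransferase of the last step, differed by -3.70 ± 1.30 (SE in limma, unadjusted p = 0.025, adjusted p = 0.234). It read 6.70, 8.78 and 5.89 in Northeastern Indigenous boars, against 13.14, 8.08 and 11.26 in Large White boars, and overlapped between breeds. AGPAT4 differed by -1.19 ± 0.45, whereas GPAM, which starts glycerolipid synthesis, differed by 0.96 ± 0.39 and AGPAT3 by 0.74 ± 0.29 (SE, unadjusted p under 0.05 in limma for all 3). DGAT1, which catalyses the same step as DGAT2, differed by 0.12 ± 0.33 (SE).

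Of 7 tested lipases and lipase regulators, 6 had negative differences and the median was -0.65, but 0.21 with Large White replicates 1 and 3 left out and 0.22 with the adipocyte covariate. MGLL, which releases the last fatty acid from monoglyceride, differed by -1.08 ± 0.43 (SE in limma, unadjusted p = 0.039, adjusted p = 0.254), and its breeds did not overlap. LIPE, hormone-sensitive lipase, had the largest difference of this list at -3.63 ± 2.05 (SE). It ranged from 2.0 to 6.77 in Northeastern Indigenous boars and from 3.19 to 10.77 in Large White boars. Its Northeastern Indigenous mean of 4.07 lay below the filter. PNPLA2, the family member that starts triglyceride breakdown, was at 0.36 ± 0.28 (SE), opposite in sign to PNPLA3.

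The 9 tested regulators had a median difference of 0.10, and that of all probe sets was also 0.10. Their median was -0.069 with Large White replicates 1 and 3 left out, -0.018 with the adipocyte covariate and -0.087 without quantile normalization. INSIG1, which holds SREBP precursors in the endoplasmic reticulum and is itself a target of SREBP, was the only one of the 9 past an unadjusted p under 0.05, at -2.08 ± 0.59 (SE in limma, unadjusted p = 0.00913, adjusted p = 0.224). It read 8.72, 9.12 and 8.81 in Northeastern Indigenous boars, against 12.14, 9.69 and 11.06 in Large White boars. SREBF2 differed by 0.45 ± 0.26, and NR1H3, the liver X receptor alpha gene, by 0.10 ± 0.25 (SE). SREBF1, which encodes SREBP-1c, was below the filter at 5.87, 6.45 and 5.43 in Northeastern Indigenous boars, against 5.49, 4.44 and 6.15 in Large White boars.

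**Figure D4:**
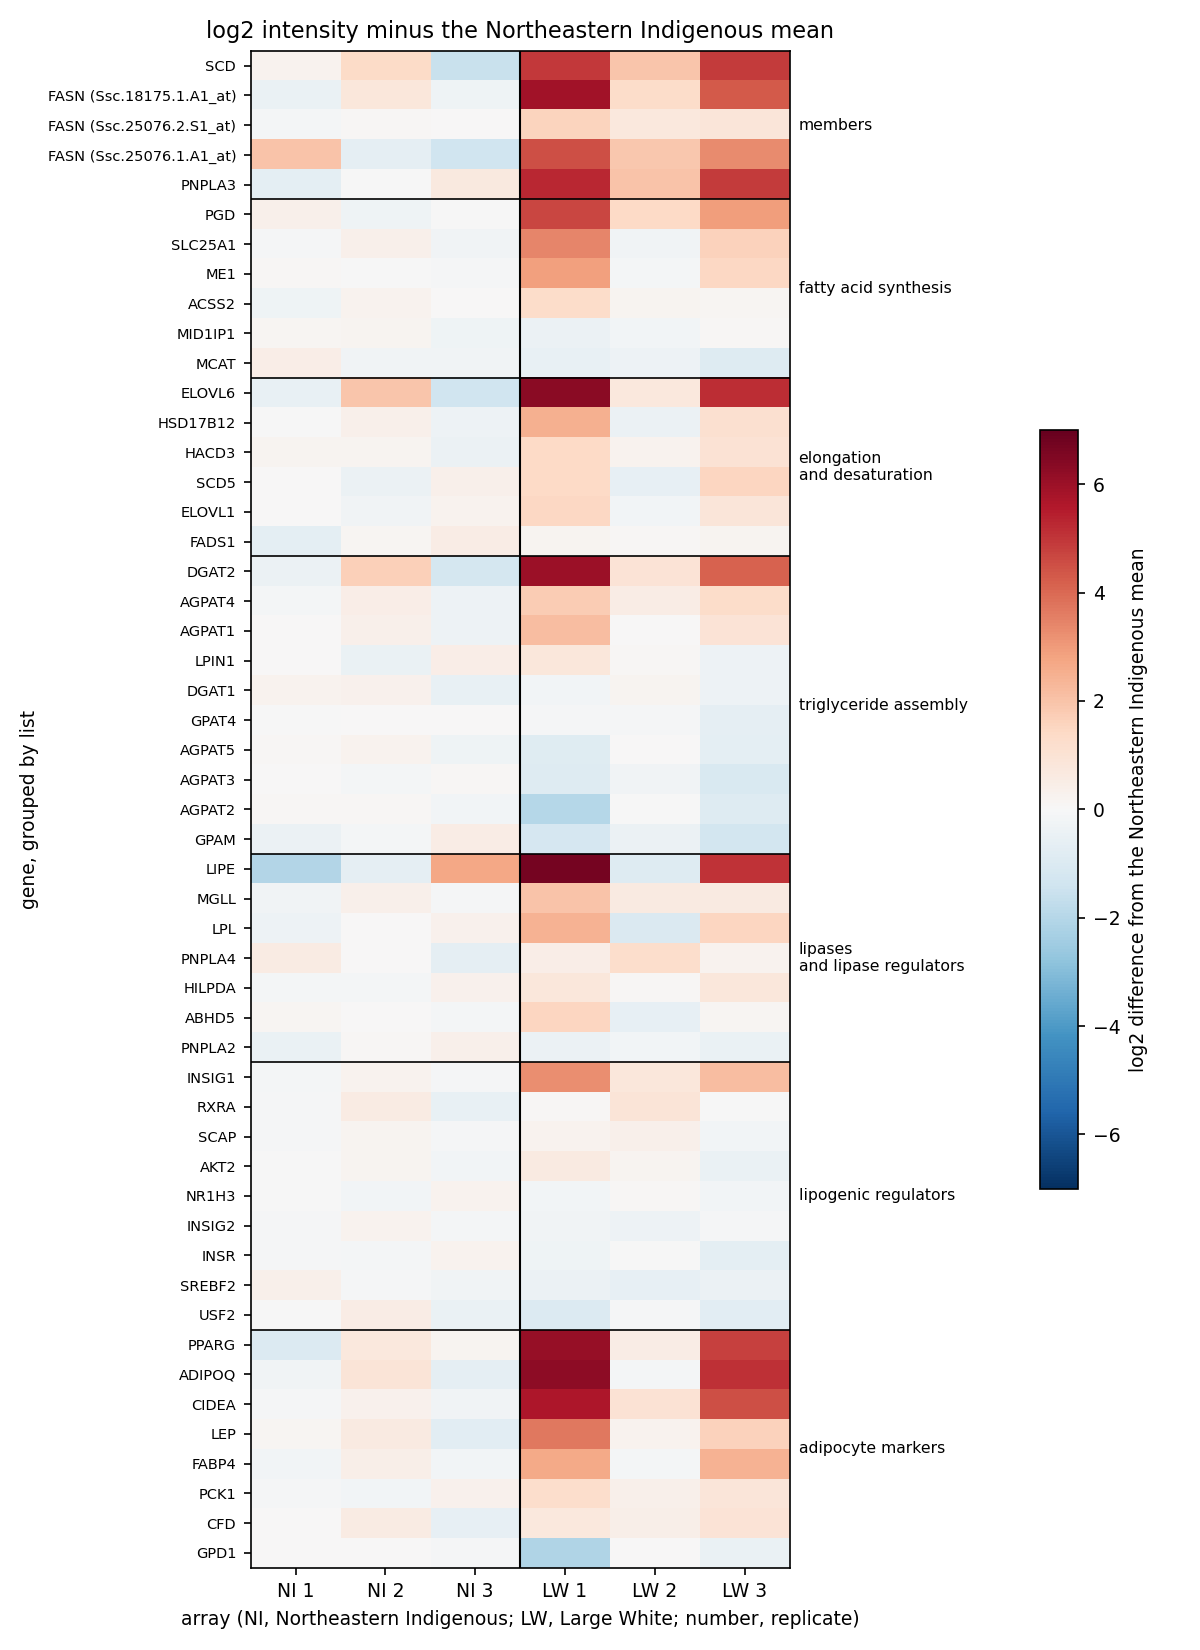
Log2 intensity of each tested gene (rows, grouped by list) minus its Northeastern Indigenous mean, on 3 Northeastern Indigenous and 3 Large White arrays (columns), with red above and blue below that mean. SCD, FASN and PNPLA3 are red on all 3 Large White arrays. On replicate 2 SCD, the brightest FASN probe set and PNPLA3 are at 1.92, 1.29 and 2.01, and the adipocyte markers have a median of 0.29. Leukocyte and fibroblast markers, not drawn here, had medians of 0.92 and 0.53 on that array. The part of fat cells in these values was not tested, and the Northeastern Indigenous mean of PNPLA3 may not be above background.

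Within the Northeastern Indigenous boars SCD, ELOVL6 and DGAT2 had the same order, highest on replicate 2 and lowest on replicate 3. The brightest FASN probe set and ADIPOQ were also highest on replicate 2, ADIPOQ at 8.29 against 7.11 and 6.73. PNPLA3, near the dim end of its arrays, was highest on replicate 3 instead. The order of SCD was not particular to lipid genes. On replicates 1, 2 and 3 the endothelial markers averaged 8.31, 8.52 and 8.14, and the fibroblast markers 10.51, 10.71 and 10.05. The skeletal muscle markers were instead highest on replicate 3, at 14.46. With 3 arrays these orders carry no test.

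Over all 6 arrays SCD and FASN correlated at r = 0.94, SCD and PNPLA3 at 0.88, and FASN and PNPLA3 at 0.96. Such values were common. All genes share the same 6 arrays, among which Large White replicates 1 and 3 stand apart, and the part of those 2 arrays in the correlations was not tested. Of 5294 named genes compared, 8.86% correlated with SCD above 0.9, 14.5% with FASN and 9.31% with PNPLA3. The 5 genes most like SCD were KLHL42, CD74, MARCKS, NAAA and C4BPA, at r = 0.994 to 0.997. The 5 most like FASN were NUF2, SCIN, FAM149A, SRI and PDIA6, at 0.998 to 1.000. The 5 most like PNPLA3 were DYNLT3, PROM1, B4GALT7, GSN and MEDAG, at 0.990 to 0.997. None of the other listed lipid genes was among these 15.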

How the data were processed

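Per array, the authors deposited 1 linear intensity for each probe set, without background or detection values used here, and the software is not given in the sources used here. Each array's mean without the lowest and highest 2% was 500.1 to 500.2, so arrays had been scaled. Of 24123 probe sets, 124 controls were left out. Symbols came from the platform annotation; 0 of them changed when looked up by gene identifier in RefSeq for Sscrofa11.1. Intensities were taken as log2 and quantile normalized. The dimmest 40% of probe sets by mean log2 intensity were left out and the rest tested with limma 3.58.1 in R 4.3.3 (lmFit, eBayes with intensity trend, two-sided). P-values were adjusted over all of them. The brightest probe set stood for a gene. The fit was checked on simulated data. Array number limits precision. The 3 genes, the lists, the tests and the alternatives were chosen with earlier results of these data known.

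Genes are named by rule: the members, list genes at an unadjusted p under 0.05 or of largest difference, the 5 most alike, and defining markers. Genes outside this rule were named for their role or direction after their values were seen.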

Additional observations from a re-analysis of the deposited data

How the results depend on the processing

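SCD, FASN and PNPLA3 kept their negative sign under every alternative that gave a value. For the fits with arrays left out this was fixed in advance, because the breeds did not overlap in the probe sets that stand for these genes. Leaving out 1 array gave -4.91 to -3.12 for SCD, -5.08 to -2.79 for FASN and -5.09 to -3.46 for PNPLA3, and 0 to 4421 probe sets called in limma, the calls coming without Large White replicate 2 (4421) and replicate 1 (1). Median centring gave 1 called probe set. With the titles' replicate number as a replicate block the differences stayed at -3.91, -3.82 and -4.06 (adjusted p = 0.336 for each in limma) and 0 probe sets were called. Same-numbered arrays did not deviate together (r = -0.02, -0.16 and -0.11). With Large White replicates 1 and 3 left out, the list medians were 0.17 for fatty acid synthesis, 0.050 for elongation and desaturation, 0.21 for lipases, -0.028 for triglyceride assembly and -0.069 for regulators. With the adipocyte covariate they were 0.25, 0.21 and 0.22, and -0.058 for triglyceride assembly. Without quantile normalization the regulators had a median of -0.087. The causes of these shifts were not tested. Adding 32 to the deposited intensities gave -3.86 for SCD, -3.63 for FASN, -2.78 for PNPLA3 and -2.28 for FASN Ssc.25076.1.A1_at. The last 2 had Northeastern Indigenous means below the filter. Averaging all tested FASN probe sets gave -2.70. Under the 60th percentile filter PNPLA3 had no value, being too dim.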

Other observations

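FADS2, the delta-6 desaturase of polyunsaturated fatty acids, was named after its values were seen. It was below the filter and was not tested, and whether it was above background is unknown. It read 1.39, 3.76 and 0.65 in Northeastern Indigenous boars against 4.50, 4.33 and 4.72 in Large White boars. PNPLA4, a relative of PNPLA3, was also named after its values were seen. It read 7.42, 6.86 and 6.22 in Northeastern Indigenous boars against 7.30, 8.09 and 7.07 in Large White boars, with its highest value on Large White replicate 2 and a difference of -0.65 ± 0.42 (SE in limma, unadjusted p = 0.166, adjusted p = 0.384).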
